A study of Mus musculus with 8 samples.

Results

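miR-221 and miR-222 were examined here as their precursors mmu-mir-221 and mmu-mir-222 (mir-221 and mir-222 below), which are 2 of the 1181 miRNA precursors measured. They were chosen by name, because these miRNAs are known to repress p27 in proliferating myoblasts, and not by a rule on their values in these libraries. Earlier results of these data were known when they were chosen. The libraries are of small RNA from the myoblasts of 4 old and 4 young C57BL/6J mice, myoblasts being the precursor cells of muscle that divide and then fuse into fibres. The labels give 1 library per mouse, no age in months, no treatment and no genetic change in either group, and the libraries are called here old 1 to old 4 and young 1 to young 4 after those labels. Each value is a log2 abundance as deposited by the authors, with 1 value per precursor in a library. How reads of its 2 arms were counted is not stated. The 359 precursors that reached a linear value of 10 in 4 or more libraries were compared between the groups. Both members and mir-206, the differentiation marker they were set against, passed that filter.

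miR-221 and miR-222 are cut from a shared X-linked primary transcript and carry the same seed, the stretch near the 5′ end of a miRNA that pairs with its targets. In dividing cells they repress the mRNAs of the cyclin-dependent kinase inhibitors p27 (Cdkn1b) and p57 (Cdkn1c), which hold cells out of the cycle, and in cultured myoblasts they are known to decline as the cells leave the cycle and fuse. miR-206 is a muscle-specific miRNA whose level is known to climb over the same course. The 3 mature sequences below, from RefSeq (GRCm38.p6), are shown because the seed, bases 2 to 8 in capitals, is what the first 2 share and the third does not.
mmu-miR-221-3p: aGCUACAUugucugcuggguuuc
mmu-miR-222-3p: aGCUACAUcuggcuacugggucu
mmu-miR-206-3p: uGGAAUGUaaggaagugugugg

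The 3p arms of miR-221 and miR-222 were identical over their first 8 bases and matched at 11 of 23 positions in all. Of 1738 mature miRNAs in that table, 3 carried this seed, and the third was miR-1928, a 17-base entry on chromosome 1. Its precursor mir-1928 was listed at 0 in all 8 libraries, below the linear value of 1 at which the file is floored, so of these 3 entries only the 2 members had values above 0.
mmu-miR-1928: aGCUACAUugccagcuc

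The hairpins are printed to show how far they can be told apart by sequence, with the mature arms of the RefSeq table in capitals (RNA strand, 5′ to 3′).
mir-221: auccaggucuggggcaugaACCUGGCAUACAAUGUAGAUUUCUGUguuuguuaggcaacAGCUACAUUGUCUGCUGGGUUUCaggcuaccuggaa
mir-222: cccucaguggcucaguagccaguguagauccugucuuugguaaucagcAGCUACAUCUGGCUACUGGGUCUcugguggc
The longest run of bases they share is 9, against hairpin lengths of 95 and 79. mir-221 lies at chrX:19146294-19146388 and mir-222 at chrX:19146893-19146971, both on the minus strand of GRCm38, the same build as mm10, with 504 bases between them. No other GENCODE gene overlapped the pair (0 found), and the nearest on the upstream side was Gm14636, a noncoding transcript on the same strand that ends 10.01 kb from mir-222.

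The 3′ untranslated region of Cdkn1b, the p27 gene, was searched for ATGTAGC, the exact complement of the seed on the transcript strand. It held 1 match in each of 3 GENCODE transcripts, starting at base 198 of 1280 and of 1087 in the forms spliced after the stop codon and at base 2357 of 3439 in the form that keeps that intron. The match is shown in capitals with its neighbouring bases, at chr6:134924419-134924446 on the plus strand of GRCm38.
Cdkn1b site 1: taaaagcattggATGTAGCattgcgcaa
Of 988 mouse 3′ untranslated regions within 10% of the longest Cdkn1b one in length, 23.2% held ATGTAGC at least once. That longest one is the form of 3439 bases that keeps the intron, and the match by itself does not set it apart. The share at the lengths of the spliced forms, 1280 and 1087 bases, was not computed. No mRNA or protein was measured, and the match is a description of sequence only.

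Old and young myoblasts held similar mean levels of the pair, and neither member passed the test between them. mir-221 had a log2 abundance of 14.26, 13.51, 14.31 and 15.12 in old 1 to old 4, against 14.11, 13.81, 13.80 and 15.51 in young 1 to young 4. The highest library of each group was its number 4, and the groups overlapped over most of their range. The group means were 14.30 ± 0.66 in old myoblasts and 14.31 ± 0.81 in young myoblasts (SD, n = 4 each), giving a difference of -0.01 (SE 0.47, limma adjusted p = 0.995; two-sided exact permutation p = 1.0). On the linear scale that is a ratio of 0.995, with a 95% interval from 0.475 to 2.08, so a change of up to about that size in either direction is not excluded by these libraries.

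mir-222 had 13.75, 13.73, 13.95 and 14.58 in old 1 to old 4, against 13.13, 14.38, 13.58 and 15.26 in young 1 to young 4. Young libraries held both the lowest and the highest value, and the old ones lay between them. The means were 14.00 ± 0.40 in old myoblasts and 14.09 ± 0.94 in young myoblasts (SD, n = 4 each), giving a difference of -0.085 (SE 0.47, limma adjusted p = 0.995; two-sided exact permutation p = 0.914) and a ratio of 0.943 with a 95% interval from 0.457 to 1.94. The sign of both differences turned when single libraries were left out, to 0.39 for mir-221 and 0.31 for mir-222 without young 4.

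Neither member passed an adjusted p of 0.05, as 0% of the 359 compared precursors did (0 of 359 in limma; 4, or 1.11%, had an unadjusted p under 0.05). Old and young values were fully separate for 3 of the 359 (0.836%) and for 0 of the 2 members. The spread of the members was ordinary for these libraries, with a pooled SD within groups of 0.74 for mir-221 and 0.72 for mir-222 against a median of 0.67 over the 359. Nothing in the labels says how the mice were paired or processed together, and these p-values set a group difference against the variation between these libraries only.

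**Figure D1:**
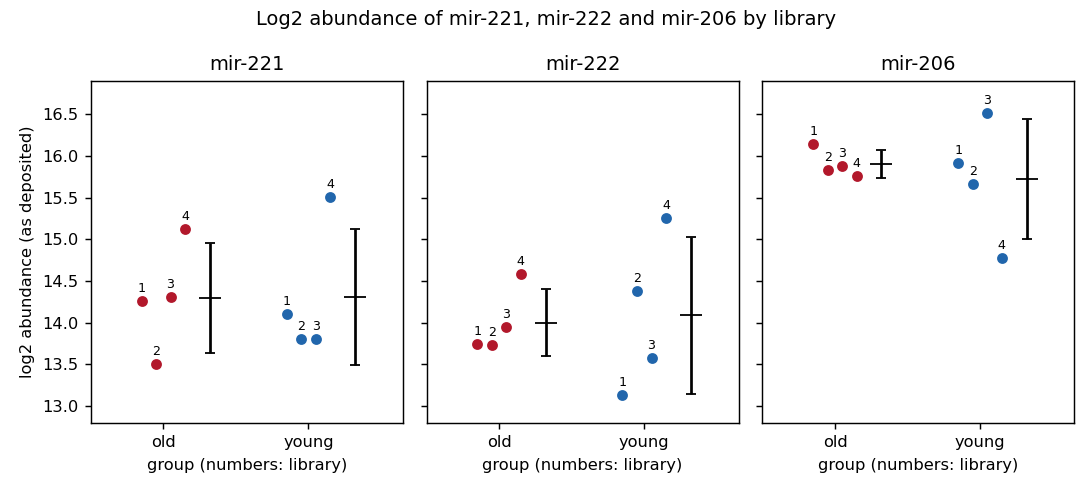
Log2 abundance of mir-221, mir-222 and mir-206 in each library (points, with the library number) and the group mean with its SD (bars, n = 4 each), old left of young. The number 4 library of each group is the highest for both members, and young 4 at 14.78 is the lowest for mir-206.

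Both members were abundant. By the mean over the 8 libraries mir-221 ranked 29 and mir-222 ranked 30 of the 359 compared precursors, at 14.30 ± 0.69 and 14.05 ± 0.67 (SD, n = 8). mir-221 held from 0.127% (old 2) to 0.292% (old 4) of the summed linear values in old libraries and from 0.112% (young 3) to 0.484% (young 4) in young ones. mir-222 held from 0.113% (old 1) to 0.201% (old 4) in old and from 0.0596% (young 1) to 0.407% (young 4) in young libraries. Between the lowest and the highest library the linear level varied 4.0-fold for mir-221 and 4.38-fold for mir-222.

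The lowest values move in steps of whole reads when they are read as RPKM, that is, as reads divided by precursor length and by library size. Read in this way, the libraries of old mice held 25.1 to 28.0 M reads and those of young mice 30.0 to 39.4 M reads. On that reading mir-221 rested on 28817 to 84941 reads in old and on 43839 to 174719 in young libraries, and mir-222 on 27912 to 48581 and on 21259 to 122176. At such depths counting error adds little to the differences between libraries.

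The precursors next to the pair in the order of levels were picked by their mean over these same 8 libraries. Tests of their difference from the pair could therefore hardly pass, and nothing is drawn from them. mir-501, just above at rank 28, had a mean of 14.49 ± 0.24, and mir-221 was 0.18 lower on average and higher in 2 of 8 libraries. mir-34c, just below at rank 31 and a miRNA induced by p53, had a mean of 13.99 ± 0.62, and mir-222 was 0.06 higher on average and higher in 5 of 8. In 5 comparisons of levels, tested by a two-sided exact sign-flip test over libraries with Benjamini-Hochberg adjustment, these gave p = 0.523 (adjusted 0.654) for mir-501 and p = 0.672 (adjusted 0.672) for mir-34c. Without old 1 the difference from mir-34c turned to -0.0043. The difference of mir-221 from mir-501 was -0.40 without young 4 and -0.074 without young 3.

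Within a library mir-221 was mostly the more abundant of the pair. mir-221 minus mir-222 was 0.51, -0.22, 0.36 and 0.54 in old 1 to old 4, against 0.98, -0.57, 0.22 and 0.25 in young 1 to young 4. It was positive in 6 of 8 libraries, and old 2 and young 2 were the exceptions. On the RPKM reading the values are divided by hairpin lengths of 95 and 79 bases, which lowers mir-221 against mir-222. Counted in reads, old 2 held 28817 of mir-221 and 27912 of mir-222, so the order in old 2 depends on that division. In young 2 mir-222 led in reads too, with 54119 against 43839. The tests here are on the deposited values, and none was run on reads. Over the 8 libraries the mean was 0.26 ± 0.48 (SD, n = 8), or 1.20-fold, which did not pass the sign-flip test (exact p = 0.180, adjusted 0.299). The mean was 0.16 without young 1 and 0.38 without young 2, the lowest and the highest value with 1 library left out. Between the groups the ratio was 0.30 ± 0.35 in old myoblasts and 0.22 ± 0.63 in young myoblasts (SD, n = 4 each; two-sided exact permutation p = 0.857, adjusted 0.857 over 3 such ratios). The largest gap between the members, in young 1, was a 1.97-fold excess of mir-221, and the opposite extreme, in young 2, was a 1.48-fold excess of mir-222.

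mir-206 was the more abundant against both members in 7 of 8 libraries. It had 16.14, 15.83, 15.88 and 15.76 in old 1 to old 4, against 15.92, 15.67, 16.52 and 14.78 in young 1 to young 4, with means of 15.90 ± 0.17 and 15.72 ± 0.72 (SD, n = 4 each; limma difference 0.18, adjusted p = 0.995). The old libraries lay close together, while young 3 and young 4 were the highest and the lowest of all 8. mir-221 minus mir-206 was -1.88, -2.32, -1.57 and -0.64 in old 1 to old 4, against -1.81, -1.86, -2.72 and 0.73 in young 1 to young 4. mir-222 minus mir-206 was -2.39, -2.10, -1.93 and -1.18 in the old libraries, against -2.79, -1.29, -2.94 and 0.48 in the young ones. Young 4 was the single library in which both members exceeded mir-206, and old 4 came closest to it among the others. The mean over the 8 libraries was -1.51 ± 1.09 for mir-221 and -1.77 ± 1.11 for mir-222 (SD, n = 8). These missed the threshold in the 5 sign-flip tests (exact p = 0.0234 and 0.0156, adjusted 0.0586 for each). Without young 4 they were -1.83 and -2.09 with an adjusted sign-flip p of 0.0391 for each. The 5 tests include those against mir-501 and mir-34c, which were picked for like means. The adjusted p depends on counting those in, so the miss does not show that the excess of mir-206 is absent.

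No difference in the ratio of the members to mir-206 passed the test between old and young myoblasts. mir-221 minus mir-206 averaged -1.60 ± 0.71 in old myoblasts and -1.415 ± 1.49 in young myoblasts, and mir-222 minus mir-206 averaged -1.90 ± 0.52 in old and -1.635 ± 1.59 in young ones (SD, n = 4 each; two-sided exact permutation p = 0.83, adjusted 0.857, for each). The differences of -0.19 and -0.27 between old and young rested on young 4: without it they were 0.53 and 0.44. The smallest p that 4 against 4 libraries can give in this test is 0.0286.

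**Figure D2:**
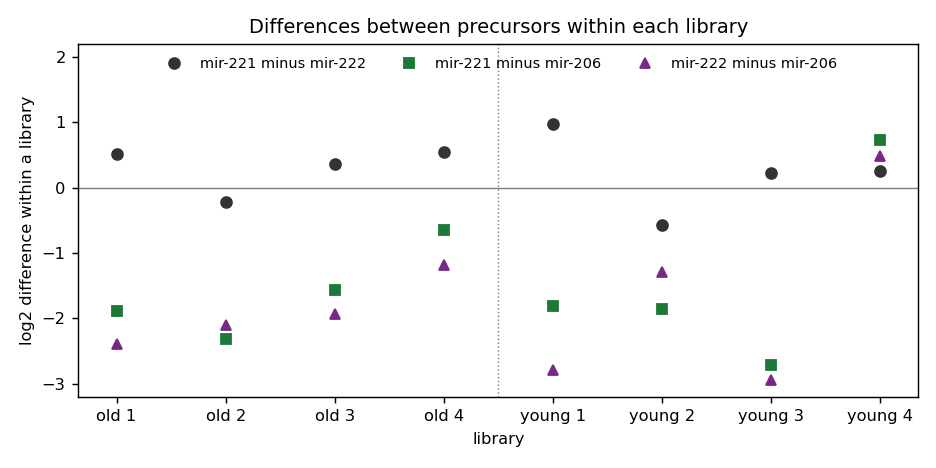
Differences of log2 abundance within each library for mir-221 minus mir-222 (circles), mir-221 minus mir-206 (squares) and mir-222 minus mir-206 (triangles), old libraries left of the dotted line and young ones right of it. Squares and triangles are below 0 in 7 libraries and above 0 in young 4, at 0.73 and 0.48.

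Across the 8 libraries the members were high together and mir-206 was low where they were high, but this rested on few libraries. mir-221 and mir-222 had a Pearson r of 0.752 (exact permutation p = 0.0319, adjusted 0.0478 over 3 correlations) and a Spearman rho of 0.714 (p = 0.0576, adjusted 0.0864). Without old 4 and young 4, the 2 libraries farthest from the median of mir-221, r was -0.127 (n = 6, exact permutation p = 0.847), so the relation did not hold among the other 6. Without young 4 alone it was 0.482 (exact permutation p = 0.272). It also depended on scaling, with r = 0.397 after median-ratio rescaling (exact permutation p = 0.334). Its adjusted exact permutation p also missed the threshold without old 1 (0.0649), old 3 (0.0798), old 4 (0.0948) or young 3 (0.0958).

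mir-222 and mir-206 had an r of -0.807 (exact permutation p = 0.0200, adjusted 0.0478) and a rho of -0.810 (p = 0.0218, adjusted 0.0653). The adjusted p of r missed the threshold without old 1 (adjusted exact permutation p = 0.0649), old 3 (0.0798), old 4 (0.0948) or young 3 (0.0542), after quantile normalization (0.0851) and when rescaled without mir-486 and mir-3107 (0.0735). Here r was -0.838 after median-ratio rescaling, but -0.513 without young 4 (exact permutation p = 0.239) and -0.433 without both old 4 and young 4 (n = 6, exact permutation p = 0.381). For mir-221 and mir-206 r was -0.684 (exact permutation p = 0.0598, adjusted 0.0598) and rho -0.429 (p = 0.299, adjusted 0.299). Without old 4 and young 4 r was 0.067 (n = 6, exact permutation p = 0.90), and without young 4 alone it was -0.223. It passed the threshold without old 2 (r = -0.766, adjusted exact permutation p = 0.0456) and without young 2 (r = -0.755, adjusted 0.0425). Taking deviations from the group means, so that age plays no part, left the 3 values at 0.754, -0.811 and -0.696 in the order given here.

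**Figure D3:**
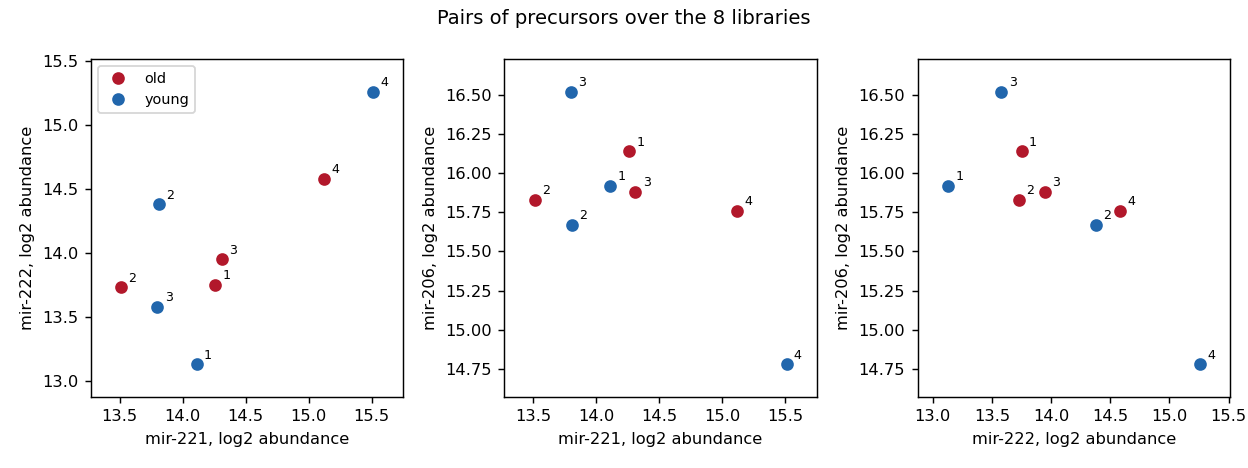
Log2 abundance of mir-222 against mir-221 (left), mir-206 against mir-221 (middle) and mir-206 against mir-222 (right) in the 4 old and 4 young libraries, with the library number beside each point. Young 4 stands at one end of every panel, and among the 6 libraries other than old 4 and young 4 r was -0.127 in the left and 0.067 in the middle panel.

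The course of the pair over the libraries was common rather than rare. Of the 359 compared precursors 120 (33.4%) had old 4 and young 4 as their highest libraries, as both members did. The Pearson r of the other 357 with the mean of mir-221 and mir-222 had a median of 0.520 and quartiles of -0.032 and 0.758, and 27 of them were above 0.9. After median-ratio rescaling, which takes out what most precursors share in a library, the median r was -0.0045. These values describe 8 libraries that also differ in depth and composition, and carry no test.

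The 5 precursors most like the pair were mir-126b (r = 0.989), mir-126a (0.981), mir-25 (0.959), mir-30a (0.958) and mir-194-2 (0.957). miR-126 is the endothelial miRNA of the Egfl7 gene, and mir-126a and mir-126b overlap on chromosome 2 and differed by 0.18 to 0.33, close to the 0.33 that their lengths give, so they are in effect 1 measurement. mir-126b had 3.70, 3.50, 3.79 and 4.67 in old 1 to old 4, against 3.29, 4.01, 3.40 and 5.43 in young 1 to young 4. It was highest in the same libraries as the pair, old 4 and young 4, and kept the first place after all 3 rescalings (r from 0.927 to 0.968) and without old 4 and young 4 (0.908, n = 6). These settings reuse the libraries by which it was picked, so they are no independent check. Its read counts were also low, as given below.

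The level of mir-126b was far below that of the pair. The mean of mir-221 and mir-222 exceeded it by 10.20 ± 0.14 on the log2 scale (SD, n = 8), about 1177-fold. mir-126b was picked as the precursor most like the pair over these same 8 libraries. The small SD of that difference follows largely from the choice, and nothing is drawn from it. The counting intervals given next for mir-126a are wider than that SD. On the RPKM reading mir-126a rested on 19 to 37 reads in old and 17 to 99 in young libraries, with 95% Poisson intervals from 11.4 to 29.7 at 19 reads (old 2) and from 80.5 to 121 at 99 reads (young 4), which cover counting error only. mir-25, of the miR-106b-25 cluster that targets p57, measured 13.86 ± 0.60 in old myoblasts and 13.94 ± 0.67 in young myoblasts (SD, n = 4 each), and its r was 0.825 without old 4 and young 4.

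The precursors that ran most against the pair were mir-499 (r = -0.909), a slow-muscle miRNA of the Myh7b gene, mir-6923 (-0.847) and mir-351 (-0.796) of the X-linked mir-322 cluster. mir-206 followed at -0.795, the fourth lowest of 357. mir-499 was at 4.32, 4.60, 3.95 and 1.60 in old 1 to old 4, against 3.45, 4.44, 5.42 and 0.36 in young 1 to young 4. Its lowest library in each group was the one in which the pair was highest. There mir-499 rested on few reads, 6 in old 4 (exact 95% Poisson interval 2.2 to 13.1) and 4 in young 4 (1.09 to 10.2), as recovered from the deposited values. Without old 4 and young 4 these r values were -0.146, 0.154, 0.351 and, for mir-206, -0.326, so they too rested on those libraries.

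**Figure D4:**
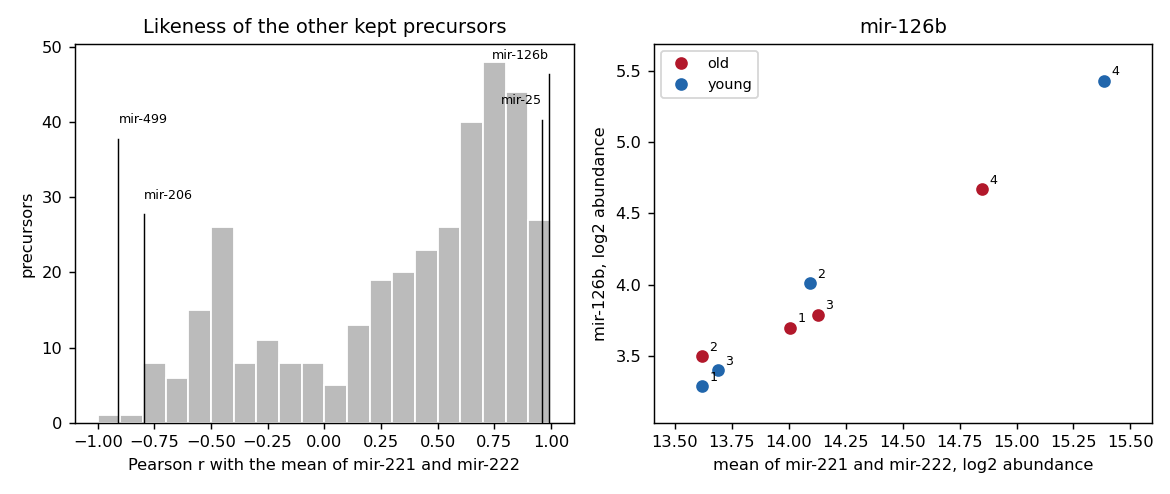
Left, number of precursors by Pearson r with the mean of mir-221 and mir-222 over 8 libraries (357 precursors), with 4 named ones marked by lines. Right, log2 abundance of mir-126b against the mean of the pair in old and young libraries, with library numbers; young 4 and old 4 are at the upper end on both axes.

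Among miRNAs known to be induced as myoblasts differentiate, mir-206, the mir-133 precursors, mir-486, mir-322 and mir-503 had a negative r with the pair, and the rest a positive one. Of 18 listed precursors 16 were compared, 11 higher and 5 lower in old libraries with 0 past the threshold, and the median difference was 0.04 against -0.05 over all 359, of which 165 were higher and 194 lower in old libraries. Their r with the pair was negative for 7 and positive for 9, with a median of 0.375, while over the 357 other precursors r was negative for 92 with a median of 0.520. The negative ones were mir-206, mir-486 (-0.704), mir-133a-1 (-0.672), its copy mir-133a-2 (-0.679), mir-133b (-0.014), mir-322 (-0.732) and mir-503 (-0.743). Among the positive ones were mir-29a (0.918), a regulator of muscle differentiation and collagen genes, and mir-27b (0.458), which represses Pax3. These signs depended on the libraries and the scaling: without old 4 and young 4 mir-133a-1 was at 0.096, mir-322 at 0.271 and mir-503 at 0.546, and after median-ratio rescaling mir-27b was at -0.261 and mir-378a at -0.558. After that rescaling 11 of the 16 were negative and 5 positive, with a median of -0.229. Over the 357 other precursors 179 were then negative, with a median of -0.0045. Without old 4 and young 4 the list had 5 negative and 11 positive, and of the 357 other precursors 119 were negative. Of the 3 most abundant members, mir-486 measured 21.41 ± 0.28 in old myoblasts and 21.28 ± 0.81 in young myoblasts, mir-378a 16.99 ± 0.34 and 17.135 ± 0.13, and mir-27b 16.20 ± 0.52 and 16.18 ± 0.33 (SD, n = 4 each).

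Proliferation-linked miRNAs, the miR-17-92 and miR-106b-25 clusters with mir-155 and mir-31, all had a positive r with the pair, also after median-ratio rescaling (from 0.145 for mir-18a to 0.863 for mir-25). Over the 357 other precursors r was positive for 265, and for 178 after that rescaling. Of 11 listed precursors 10 were compared, 7 higher and 3 lower in old libraries with 0 past the threshold and a median difference of 0.12. Their median r was 0.794, with mir-93 at 0.946, mir-106b at 0.919 and mir-92a-1 at 0.801. mir-93 was at 0.872 without old 4 and young 4, but 5 of the 10 were then negative: mir-92a-1 (-0.218), mir-155 (-0.488), mir-18a (-0.375), mir-19b-1 (-0.302) and mir-20a (-0.239). Of the 357 other precursors 119 were negative without those libraries. Of the 3 most abundant, mir-92a-1 measured 18.66 ± 0.37 in old myoblasts and 18.92 ± 0.55 in young myoblasts, mir-31 13.93 ± 0.49 and 13.85 ± 1.03, and mir-25 as given above.

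Other miRNAs reported to repress p27 or p57 did not pass the test between old and young myoblasts either. All 11 listed precursors were compared, 5 higher and 6 lower in old libraries with 0 past the threshold and a median difference of -0.0025. mir-92a-1 and mir-25, on this list too, are given above. mir-181a-2 measured 18.07 ± 0.25 in old myoblasts and 18.31 ± 0.51 in young myoblasts, and its copy mir-181a-1 measured 17.845 ± 0.25 and 18.09 ± 0.51 (SD, n = 4 each). The median r of this list with the pair was 0.708, and mir-24-1 had 0.932, or 0.778 without old 4 and young 4. All 11 were positive over the 8 libraries, and 3 were negative without old 4 and young 4, mir-92a-1 as above, mir-92b (-0.649, against 0.650 over all libraries) and mir-152 (-0.257, against 0.661). Of the 357 other precursors 265 were positive over the 8 libraries and 119 negative without old 4 and young 4. mir-181a-2 had 0.534, and -0.183 after median-ratio rescaling.

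The labelled cell type was checked against marker miRNAs, since endothelial cells also hold much miR-221 and miR-222. All 6 muscle precursors were above 0 in at least some libraries, with a summed linear level of 74089 to 102304 in old and 36589 to 153324 in young libraries, the lowest being young 4. mir-206 and the mir-133 precursors made up nearly all of it, while mir-1a-1, a miRNA of mature muscle, was at 2.525 ± 0.53 in old myoblasts and 1.79 ± 1.42 in young myoblasts on the log2 scale. The 2 endothelial precursors summed to 21.3 to 45.7 in old and 17.6 to 77.6 in young libraries, highest in old 4 and young 4. Fibroblast and smooth muscle precursors, 5 of 6 above 0, summed to 41938 to 58764 and 24441 to 51299. In young 4 their sum of 45492 was above the muscle sum of 36589, while in every other library the muscle sum was higher. Their r with the pair ran from -0.032 (mir-143) to 0.836 (mir-199a-2). The median was 0.563 against 0.520 over the 357 other precursors, and 0.351 against 0.138 without old 4 and young 4. Blood precursors summed to 8.28 to 22.2 and 3.91 to 20.0, with mir-142, mir-142b, mir-223 and mir-144 at 0 in all libraries. Neural ones summed to 4.59 to 22.4 and 7.09 to 17.4. Epithelial ones summed to 30.1 to 264 in old and 59.3 to 174 in young libraries, highest in old 4 and young 4 through mir-205, with mir-200a and mir-429 at 0. The part of these cells in the level of the pair was not tested, and in such bulk samples fewer cells of a type and less RNA per cell cannot be told apart.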

How the data were processed

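The authors deposited log2 values, floored at 0, for miRNA precursors in 8 libraries. The submitters' processing notes name BWA and mm10; no counting rule, filter or normalization is stated there. That the linear values are RPKM was inferred from low values (under 12 reads), which times precursor length were whole multiples of a step in 99.1% to 100.0% of cases (tolerance 0.1 read), and the reads rest on that. Scaling to library size means that a library's dominant precursors move all others in it.

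limma 3.58.1 (R 4.3.3, eBayes with trend) was run on the log2 values as deposited over the 359 precursors that reached a linear value of 10 in 4 or more libraries, with Benjamini-Hochberg adjustment and a threshold of 0.05. Differences are old minus young. Single ratios and correlations had exact permutation tests (scipy 1.17.1 and numpy 2.4.6 under Python 3.11.15). limma was tested on simulated data and the exact tests on inputs with known answers. Positions and miRNA sequences are from RefSeq tables (GRCm38.p6), which matched 1173 of 1181 precursors by name and 359 of the 359 compared, and neighbouring genes and the Cdkn1b site from GENCODE M21.

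The members, lists and tests were chosen with earlier results of these data known. Named precursors were the members, mir-206, same-seed precursors, the 5 most and 3 least like the members, rank and X-chromosome neighbours, and the 3 most abundant of each list; the text picks out others for their values, after seeing them. Alternatives were other pseudocounts, filters, rescalings and limma settings, a block for the replicate number, and fits without each library or without both old 3 and young 4. Leaving out both old 4 and young 4, and single libraries in the tests of level order, was added after seeing the data.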

Additional observations from a re-analysis of the deposited data

How the results depend on the processing

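No alternative brought mir-221 or mir-222 past the threshold between old and young libraries, but the sign of their differences was not stable. For mir-221 the difference was 0.025 after median-ratio rescaling, 0.068 after quantile normalization, 0.19 rescaled without mir-486 and mir-3107, 0.17 with array weights, 0.39 with old 3 and young 4 left out and 0.12 with old 4 and young 4 left out, and it ranged from -0.28 to 0.39 when single libraries were left out, against -0.0075 as reported. For mir-222 it was 0.11 rescaled without those precursors, 0.091 with array weights, 0.32 with old 3 and young 4 left out and 0.11 with old 4 and young 4 left out, and from -0.40 to 0.31 without single libraries. The rescaling without mir-486 and mir-3107 moved the median of all 359 precursors from -0.05 to 0.14. For mir-206 it was -0.089 with array weights, -0.127 with old 3 and young 4 left out, -0.087 with old 4 and young 4 left out and -0.13 without young 4. The number of precursors past the threshold was 33 with old 3 and young 4 left out, libraries picked for other miRNAs, and 0 elsewhere, also without single libraries (0 to 0).

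The ratio of mir-221 to mir-222 differed between old and young by -0.19 to 0.33 without single libraries. That of mir-221 to mir-206 ranged from -0.62 to 0.53 (0.052 without old 2) and was 0.52 with old 3 and young 4 left out and 0.21 with old 4 and young 4 left out. That of mir-222 to mir-206 ranged from -0.70 to 0.44 and was 0.45 and 0.20 in the same cases. The level of mir-222 minus mir-34c ranged from -0.0043 to 0.16 without single libraries.

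The correlation of mir-221 with mir-222 ranged from 0.482 to 0.866 without single libraries. It was 0.624 after quantile normalization, 0.397 after median-ratio rescaling, 0.490 rescaled without mir-486 and mir-3107, 0.478 with old 3 and young 4 left out and -0.127 with old 4 and young 4 left out, which are also the libraries farthest from the median of mir-221. That of mir-221 with mir-206 ranged from -0.766 to -0.223, with -0.755 without young 2, and was -0.469 after median-ratio rescaling, -0.208 with old 3 and young 4 left out and 0.067 without old 4 and young 4. That of mir-222 with mir-206 ranged from -0.914 to -0.513 and was -0.753 after quantile normalization, -0.793 rescaled without mir-486 and mir-3107, -0.509 with old 3 and young 4 left out and -0.433 with old 4 and young 4 left out. The cause of these shifts was not tested.

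The labels do not say that a number pairs mice. Same-numbered libraries had correlations of their deviations from the group means of -0.064, 0.435, 0.662 and 0.580 for numbers 1 to 4, and not every library correlated best with its own number. With the replicate number as a block the difference was -0.0075 with an SE of 0.24 for mir-221 and -0.085 with an SE of 0.30 for mir-222 (limma, adjusted p = 0.992 and 0.947), 0 precursors passed, and 39 had an unadjusted p under 0.05. For the ratios of mir-221 to mir-222, mir-221 to mir-206 and mir-222 to mir-206 the block leaves the differences at 0.078, -0.19 and -0.27 by construction, and the sign-flip test over the 4 numbers gave exact p = 0.75, 0.625 and 0.75.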

Other observations

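On the X chromosome, where 27 of the compared precursors lie, the nearest ones to the pair were far away. mir-1198, 11.3 Mb to the lower side, measured 8.10 ± 0.27 in old myoblasts and 8.22 ± 0.53 in young myoblasts, with an r of 0.463 with the mean of the pair. mir-92a-2, 33.6 Mb to the higher side and a member of the miR-106a-363 cluster, measured 13.11 ± 0.33 in old myoblasts and 13.23 ± 0.53 in young myoblasts (SD, n = 4 each), with an r of 0.776. Neither passed the threshold (limma, adjusted p = 0.995 for each).

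Of 6 listed epithelial precursors only mir-205 passed the filter, and of 6 blood ones only mir-150. mir-141, mir-200b and mir-200c averaged 0.18, 0.555 and 0.78 in old myoblasts and 1.59, 0.60 and 0.64 in young ones. mir-205, a miRNA of epithelial cells, had a mean log2 abundance of 5.935 ± 1.49 in old myoblasts and 6.33 ± 0.75 in young myoblasts and an r of 0.748 with the pair, or -0.041 without old 4 and young 4. mir-150, a lymphocyte miRNA, had 3.75 ± 0.58 in old myoblasts and 3.03 ± 1.45 in young myoblasts, with an r of 0.665, or 0.566 without old 4 and young 4. mir-126b stood at 0.908 without those libraries, and no cause of its likeness to the pair was tested.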
